A study of Mus musculus with 9 samples.

Results

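The 40 genes described here encode proteins that copy the genome during S phase and proteins that repair it or signal its damage. They were taken by name from a list, and for each gene the single-gene probe set with the highest mean over all 9 arrays was used. All 40 of the 40 listed genes had such a probe set, among 18194 genes measured in all. For 39 of the 40 the mean lay above 4.49, the median of all probe sets on the log2 scale used throughout. The exception was Tyms, whose chosen probe set averaged 4.37, so its values below are those of a dim probe set.

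The arrays measured total RNA of SCCVII, a mouse tumour line that arose from a spontaneous squamous cell carcinoma of the mouth in CH3 mice, in 3 groups of 3 arrays. The PA group was the parental line kept in ordinary culture. The NIR group was cells recovered from tumours grown from injected PA cells in stroma left without irradiation, described as poorly invasive and metastatic. The IR group came from tumours of PA cells injected into stroma irradiated beforehand, described as hypoxic and highly invasive and metastatic tumours whose derived lines kept the latter properties in culture. The irradiation was thus of the host stroma and not of the SCCVII cells, and all groups share the SCCVII origin. The submitters call the 9 samples independent, but nothing in the labels ties each array to its own tumour, line or culture. If several share one, the p-values measure technical spread only.

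Replication begins with licensing. In G1 the origin recognition complex, with Cdc6 and Cdt1, loads the Mcm2-7 ring onto DNA, and in S phase Cdc45 and the GINS complex turn that ring into the active helicase. Primase and the replicative polymerases then copy both strands with the sliding clamp PCNA, and ribonucleotide reductase and thymidylate synthase supply the nucleotides. Many of these genes are known targets of E2F factors and are transcribed from late G1 onward, so in a dividing population their RNA is commonly read together with proliferation. The repair genes in the list serve homologous recombination, end joining, single-strand break repair and mismatch repair, and the Atm and Atr kinases with Chek1 and Chek2 relay damage signals to the cell cycle.

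A sequence feature that the choice of genes did not use was read from RefSeq promoters on the GRCm38.p6 build, each 300 bases long with 250 before and 50 after the transcription start. A promoter was matched for 34 of the 40 genes, and Mcm4, Prkdc, Fancd2, Pole, Gins2 and Gins1 had no entry. The 4 E2F-type octamers TTTCGCGC, TTTGGCGC, TTTCCCGC and TTTGCCGC were searched on both strands. At least 1 of them was present for 15 of the 34 genes, or 44.1%, against 3.81% of all genes measured that have a promoter in the table. Counted over promoters, the share was 38.5% of the 39 promoters of these genes and 2.26% of all 32851 promoters of that length. The windows of 160 bases just before the start of Mcm5, Mcm6, Orc1 and Prim1 are printed here to show the octamers in 3 licensing genes and their lack in the gene with the largest IR to PA difference. Capitals mark the octamers, and all are written 5′ to 3′ on the gene's strand. The windows lie at chr8:75109349-75109508 on the plus strand, chr1:128359706-128359865 on the minus strand, chr4:108579294-108579453 on the plus strand and chr10:128015055-128015214 on the plus strand.
Mcm5: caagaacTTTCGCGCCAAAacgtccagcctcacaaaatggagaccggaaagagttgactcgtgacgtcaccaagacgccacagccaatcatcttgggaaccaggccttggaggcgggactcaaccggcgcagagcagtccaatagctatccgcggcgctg
Mcm6: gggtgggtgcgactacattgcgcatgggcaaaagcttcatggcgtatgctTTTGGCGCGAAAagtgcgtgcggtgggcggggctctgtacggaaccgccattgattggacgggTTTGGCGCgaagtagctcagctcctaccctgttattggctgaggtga
Orc1: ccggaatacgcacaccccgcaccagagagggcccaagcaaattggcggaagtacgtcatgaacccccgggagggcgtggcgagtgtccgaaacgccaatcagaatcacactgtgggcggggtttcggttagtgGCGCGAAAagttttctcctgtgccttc
Prim1: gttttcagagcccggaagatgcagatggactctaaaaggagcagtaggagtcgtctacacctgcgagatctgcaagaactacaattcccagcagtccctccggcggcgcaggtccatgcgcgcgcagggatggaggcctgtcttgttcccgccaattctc

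In Mcm5 and in the upstream run of Mcm6, TTTCGCGC and TTTGGCGC overlap on opposite strands, so 1 run of 12 capitals holds both. Mcm6 holds a further TTTGGCGC nearer the start. In Orc1 the TTTCGCGC octamer reads on the opposite strand, as GCGCGAAA. TTTCGCGC was found in the promoters of 6 of the 34 genes, namely Lig1, Mcm5, Mcm6, Mcm7, Orc1 and Rfc3. TTTGGCGC was found for 5, Cdt1, Mcm3, Mcm5, Mcm6 and Pola1. TTTCCCGC was found for 9, Brca2, Cdc6, Chek2, Mcm3, Mcm7, Msh6, Pold1, Rfc3 and Xrcc6, and TTTGCCGC for 0. Such matches are descriptions of letters in a window and not binding sites, and their absence from a window says nothing about the factor.

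The octamers were spread unevenly over related lists. They occurred for 22.2% of 36 other replication genes, 10.7% of 56 other repair genes, 35.0% of 20 regulators of the G1 to S transition and 4.76% of 21 mitosis genes. TTTGAA, the core of the CHR element known from genes of late cell cycle, ran the other way. It was found for 3 of the 34 replication and repair genes (8.82%), Cdc45, Fen1 and Mcm2, and for 17 of the 21 mitosis genes (81.0%), against 15.7% of all genes measured that have a promoter. CCAAT was found for 22 of the 34 (64.7%) and for 17 of the 21 mitosis genes, against 42.0%. Counted over all promoters in the table the shares were 17.9% for TTTGAA and 37.4% for CCAAT.

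Across the arrays no replication or repair gene passed the test in any comparison. Groups were compared with limma on the log2 values, with p-values adjusted by Benjamini-Hochberg over all 18194 genes and a threshold of 0.05. Between IR and NIR, 0 of the 40 genes were higher and 0 lower, while 0.786% of all genes were called higher and 0.863% lower in IR. Between IR and PA the counts were again 0 and 0, with 0.297% of all genes called higher and 0.758% lower in IR. Between NIR and PA they were 0 and 0, with 0.379% called higher and 0.918% lower in NIR. The limma F test over the 3 groups called 0 of the 40 and 2.34% of all genes. With shares this low over all genes, a count of 0 among 40 does not stand apart from the background. The 3 comparisons share arrays pairwise and are not independent of each other.

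At an unadjusted limma p below 0.05, 3 of the 40 genes passed between IR and NIR (Mcm10, Prim1 and Rfc4), or 7.5%, against 15.9% of all genes. Between IR and PA 1 gene passed (Prim1), or 2.5%, against 8.59%. Between NIR and PA 2 passed (Pold1 and Prkdc), or 5%, against 12.1%. For the F test 2 passed (Mcm10 and Prim1), or 5%, against 15.0%. The lowest adjusted p of any of the 40 was 0.188 for Mcm10 between IR and NIR, 0.355 for Prim1 between IR and PA and 0.317 for Pold1 between NIR and PA.

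The sizes of the differences were small. None of the 40 genes differed by 1.5-fold or more in any comparison, a size reached by 0.786% to 0.995% of all genes. The largest differences were Rfc3 between IR and NIR (1.24-fold), Prim1 between IR and PA (1.19-fold) and Pold1 between NIR and PA (1.27-fold). The median size of the log2 difference was 0.091 between IR and NIR, 0.081 for IR against PA and 0.063 for NIR against PA. Over all genes these medians were 0.085, 0.070 and 0.079. The signed medians were -0.025, -0.039 and 0.0095, against 0.0014, 0.0043 and 0.0046 over all genes. In IR, 26 of the 40 genes had a lower mean than in NIR and 26 a lower mean than in PA, while NIR had 21 higher and 19 lower means than PA.

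A p above the threshold does not show that values did not differ, so the 95% intervals of the differences were read against fixed sizes. The whole interval lay within 1.5-fold in either direction for 39 of the 40 genes between IR and NIR, the exception being Rfc3. It did so for 40 of 40 between IR and PA and for 38 of 40 between NIR and PA, the exceptions being Pold1 and Rfc3. All 40 lay within 2-fold in each comparison. Tyms is counted in these numbers, but its interval is that of a dim probe set and says little about its RNA. The median interval reached 0.18 log2 units to either side.

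**Figure D1:**
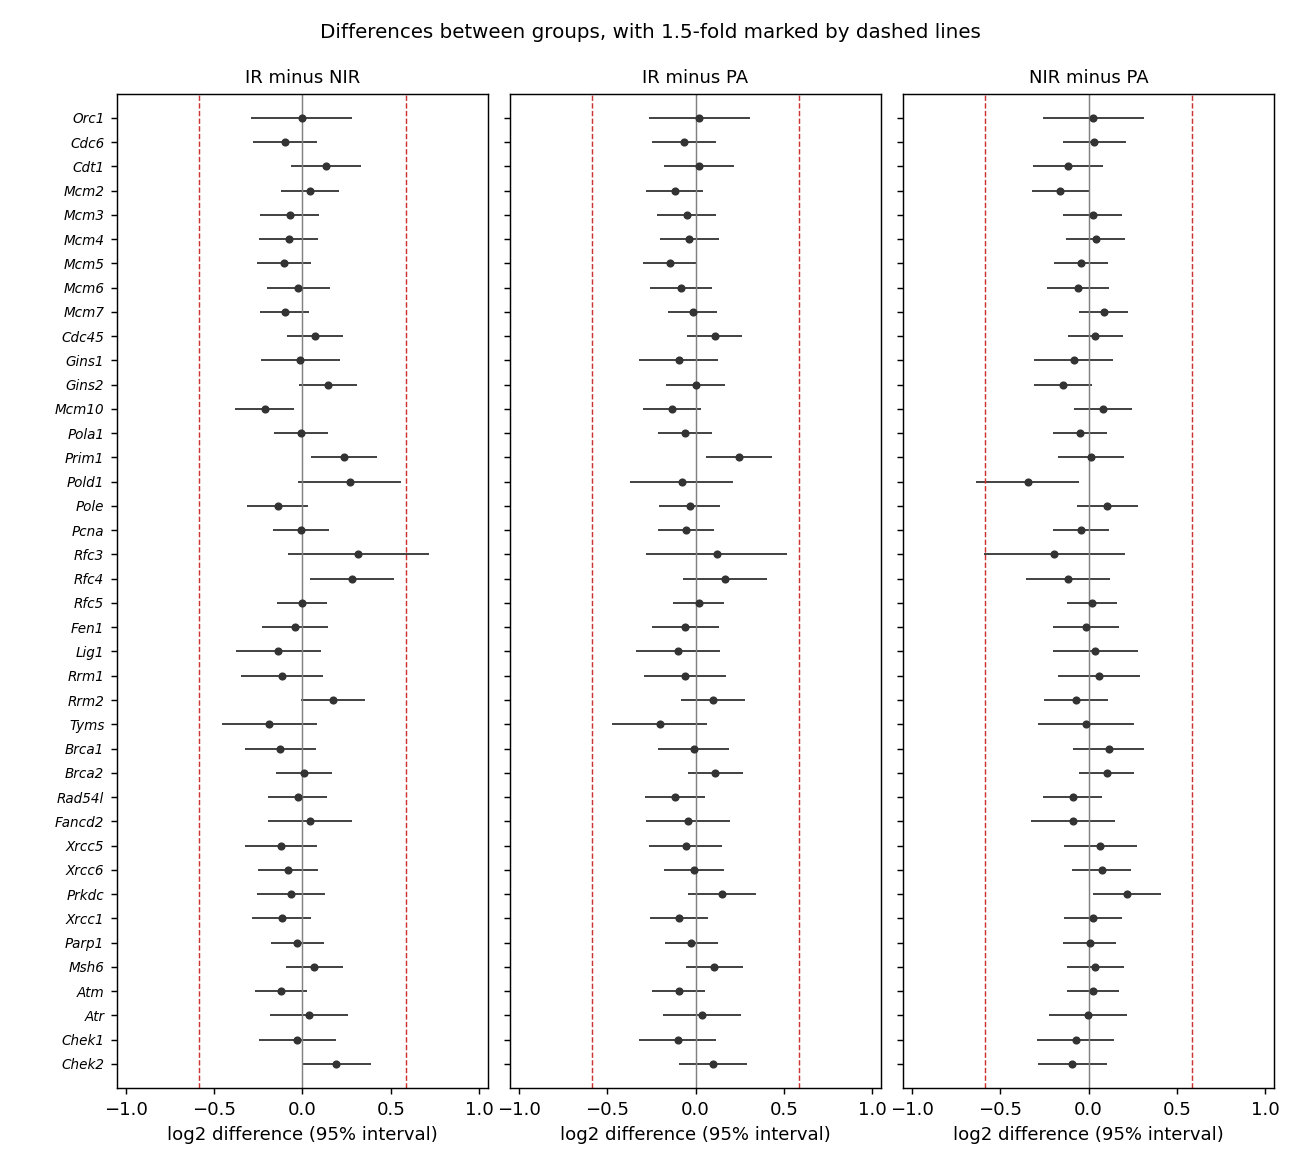
Log2 difference of each of the 40 genes between IR and NIR, IR and PA, and NIR and PA (points), with 95% intervals from the limma fit (horizontal lines, 3 arrays per group). Dashed red lines mark 1.5-fold, and an interval crosses one only for Rfc3 in the first comparison and for Pold1 and Rfc3 in the last.

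Genes were also sorted by whether the 3 arrays of a group all lay on one side of the 3 arrays of another, with no test. Prim1, Rfc4 and Chek2 (3 of 40, 7.5%) lay wholly higher in IR than in NIR, against 8.69% of all genes. Mcm5, Mcm7, Mcm10 and Atm (4 of 40, 10%) lay wholly lower, against 9.4%. Prim1, Rfc4, Brca2 and Prkdc (10%) lay wholly higher in IR than in PA, against 7.26%. Mcm2, Mcm5, Mcm6, Mcm10, Rad54l and Atm (6 of 40, 15%) lay wholly lower in IR than in PA, against 7.43%. Mcm7 and Prkdc (5%) lay wholly higher in NIR than in PA, against 7.82%, and Mcm2, Pold1, Rad54l and Fancd2 (10%) wholly lower, against 7.73%. The share farthest from that of all genes was that of the 6 genes with IR below PA, 4 of them Mcm genes, a gap that was not tested. After quantile normalization 3 genes lay so, against 7.99% of all genes. Under each of the other alternatives tried 5 genes lay so, against 7.4% to 8.48% of all genes.

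One array stood apart for these genes and touches many of the values below. NIR replicate 2 was the array farthest from the gene's mean over the 9 arrays for 18 of the 40 genes (45%), against 21.9% of all genes, and IR replicate 3 was so for 10 (25%), against 17.6%. In NIR replicate 2, 14 of the 40 genes had their lowest value and 7 their highest. The mean of the 40 genes was 0.069 below the average of the 9 arrays there, against 0.028 above it in each of the other 2 NIR arrays. In IR the corresponding values were 0.0048, -0.018 and -0.0037, and in PA 0.026, 0.043 and -0.040. The mean level of the 40 genes (mean ± SD, n = 3) was 8.63 ± 0.011 in IR, 8.64 ± 0.056 in NIR and, for PA, 8.65 ± 0.044, so the groups overlapped. Without that array, 8 of the 40 IR to NIR differences and 10 of the 40 NIR to PA differences changed sign. The largest were then 0.21 in size, for Mcm10 in the first and for Orc1 in the second comparison. The value without it is given below for each printed difference over 0.05 in size that it moved by over 1.5 times.

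**Figure D2:**
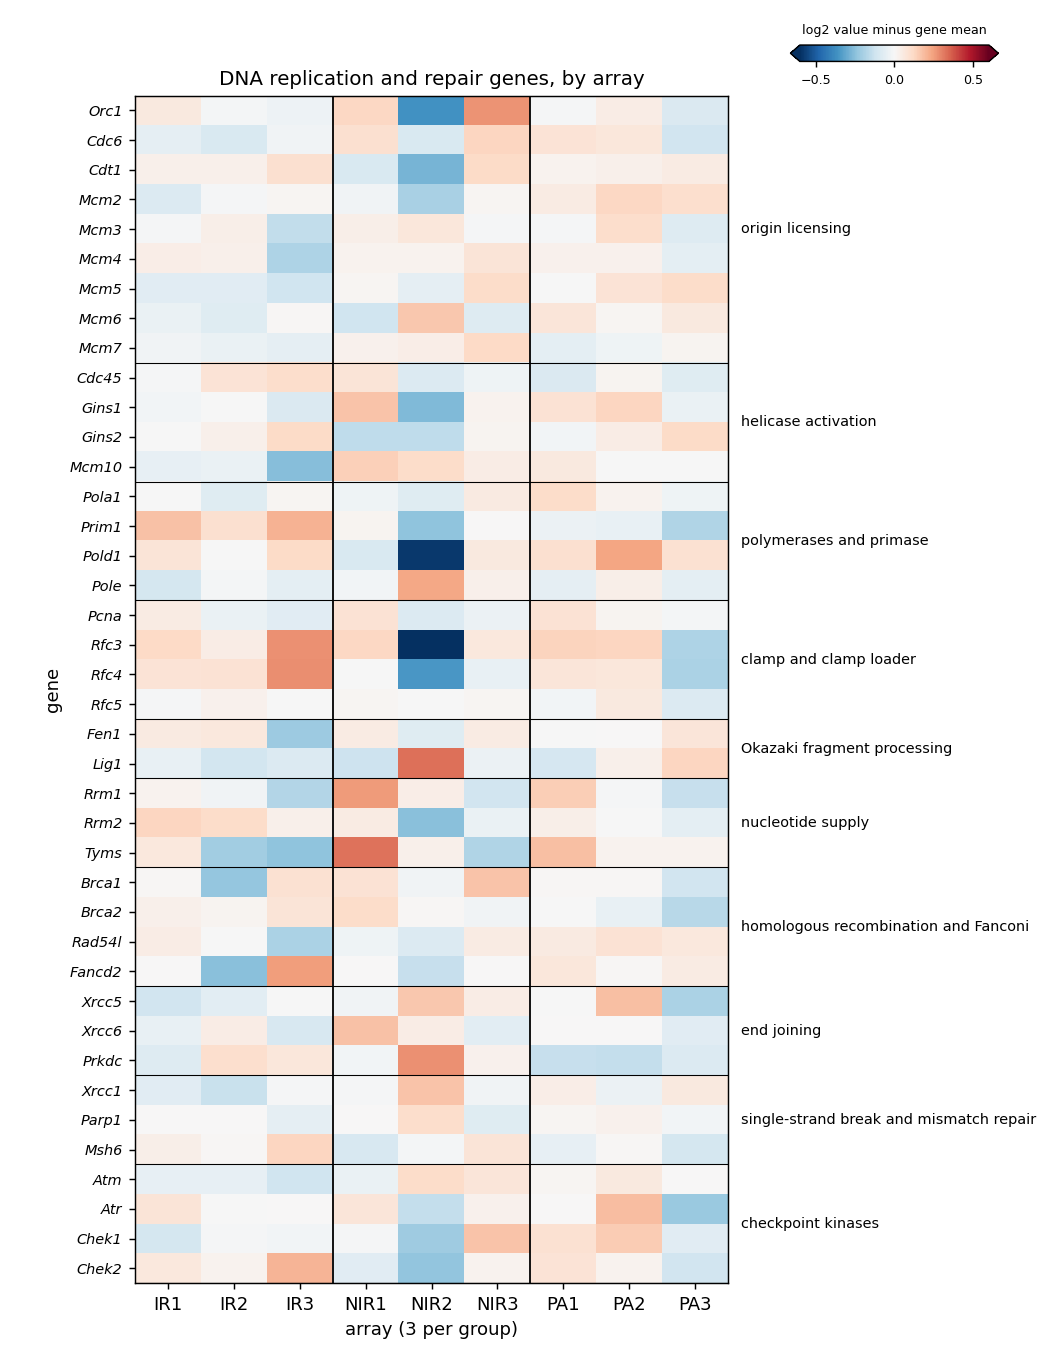
Log2 value of each of the 40 genes in each array minus that gene's mean over the 9 arrays (colour, blue lower and red higher), ordered by role, with vertical lines between the groups. The column of NIR replicate 2 holds the lowest value of 14 genes, with the darkest cells at Rfc3 and Pold1. Rfc3 passes the end of the colour scale there, and Pold1 falls just short of it.

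The licensing genes (Orc1, Cdc6, Cdt1 and Mcm2 to Mcm7) averaged 9.64 ± 0.017 over the IR arrays, 9.68 ± 0.08 over those of NIR and 9.70 ± 0.026 over those of PA (SD, n = 3). None of the 9 was called in any limma comparison. In IR, 7 of the 9 had a lower mean than in NIR and 7 a lower mean than in PA, with medians of -0.072 and -0.049. Other bright probe sets did not all share these directions. For Mcm4 a probe set with a mean of 8.97 gave 0.28 between IR and NIR and 0.12 for IR against PA. For Mcm6 a probe set with a mean of 9.02 gave 0.19 and -0.045. Those of Mcm5 and Orc1 were lower in IR in both comparisons. Mcm5, a subunit of the helicase ring and one of the promoters printed above, read 10.22, 10.22 and 10.17 in IR, 10.30, 10.23 and 10.40 in NIR, and 10.28, 10.37 and 10.40 in PA. Its IR arrays lay below all other arrays, narrowly so below NIR replicate 2, and those of NIR and PA overlapped. The difference was -0.15 ± 0.07 (SE, n = 3 per group) between IR and PA, with a 95% interval of -0.30 to 0.0068 and an adjusted p of 0.611 by limma. Between IR and NIR it was -0.11 ± 0.07, with an adjusted p of 0.521. The chosen probe set is one whose name marks shared sequence, and another bright probe set of Mcm5 gave -0.083 for IR against PA and -0.22 for IR against NIR.

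Mcm2, another subunit of the ring, read 9.46, 9.54 and 9.56 in IR, 9.52, 9.35 and 9.56 in NIR, and 9.59, 9.67 and 9.64 in PA. The PA arrays were the highest, above every IR and NIR array. The NIR to PA difference was -0.16 ± 0.074, with an interval of -0.32 to 0.0019 and an adjusted p of 0.42. That difference was -0.097 without NIR replicate 2. A separate probe set of Mcm2, the one without a suffix for shared sequence, gave 0.11 for the same comparison, so its direction is not settled. It also gave -0.20 between IR and NIR, where the chosen probe set gave 0.043. Mcm7 read 10.99, 10.97 and 10.96 in IR, 11.04, 11.06 and 11.14 in NIR, and 10.95, 10.99 and 11.03 in PA, with NIR above both IR and PA in all arrays but by only 0.085 over PA on average. Mcm6 read 10.64, 10.61 and 10.68 in IR, 10.56, 10.84 and 10.60 in NIR, and 10.75, 10.69 and 10.74 in PA, and NIR replicate 2 was its highest array, not its lowest.

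The remaining licensing genes showed overlapping groups. Orc1, the ATPase of the origin recognition complex, covered 6.25 to 6.88 over the 9 arrays, and both ends of that range lay in NIR, in replicates 2 and 3. Cdt1, the loading factor, covered 10.28 to 10.67, and its partner Cdc6 covered 8.95 to 9.20. Mcm3 covered 9.31 to 9.57 and Mcm4 9.64 to 9.90, with the lowest value of both in IR replicate 3. Their group means differed by at most 0.13, the IR to NIR difference of Cdt1, which was 0.038 without NIR replicate 2. Another bright probe set of Cdt1, with a mean of 9.29, gave -0.10 for that comparison, so its direction is not settled.

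Of the helicase activators Cdc45, Gins1, Gins2 and Mcm10, Mcm10 had the lowest adjusted p of all 40 genes. Mcm10 helps to start the assembled helicase and ties it to polymerase alpha. It read 7.74, 7.75 and 7.53 in IR, 7.93, 7.90 and 7.83 in NIR, and 7.84, 7.78 and 7.78 in PA. Every IR array lay below every NIR and PA array, and IR replicate 3 was the lowest of all. The IR to NIR difference was -0.21 ± 0.076 (0.862-fold), with a 95% interval of -0.38 to -0.047 and an adjusted p of 0.188 by limma. Between IR and PA it was -0.13 ± 0.076, with an adjusted p of 0.703. Without IR replicate 3 these differences were -0.14 and -0.062. Its other probe sets were far dimmer, with means of 4.90 and 4.71 against 7.79 for the chosen one. The first gave 0.17 between IR and NIR, the opposite direction, and the second gave -0.15.

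The remaining activators showed no such separation. Cdc45, which travels with the ring, covered 8.20 to 8.39, and its IR mean was 0.071 above NIR (0.036 without NIR replicate 2) and 0.11 above PA. Gins2, a GINS subunit, covered 7.36 to 7.63. Its NIR mean was -0.14 relative to PA, while IR and PA differed by only 0.00072. Gins1, of the same complex, covered 7.94 to 8.38, with its lowest value in NIR replicate 2 and its highest in NIR replicate 1.

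Prim1, the catalytic subunit of primase that lays the RNA primers, had the largest IR to PA difference of the 40 genes. It read 9.93, 9.85 and 9.96 in IR, 9.77, 9.51 and 9.75 in NIR, and 9.71, 9.71 and 9.57 in PA. All 3 IR arrays lay above all NIR and PA arrays, while NIR and PA overlapped. The IR to PA difference was 0.25 ± 0.085 (1.19-fold), with a 95% interval of 0.061 to 0.43 and an adjusted p of 0.355 by limma. The IR to NIR difference was 0.23 ± 0.085, with an interval of 0.048 to 0.42 and an adjusted p of 0.198. That difference was 0.15 without NIR replicate 2. The other probe set of Prim1 gave 0.24 between IR and NIR and 0.11 between IR and PA, in the same direction. The NIR to PA difference of the chosen probe set was 0.013.

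Pold1, the catalytic subunit of the lagging-strand polymerase delta, had the largest NIR to PA difference. It read 8.31, 8.23 and 8.35 in IR, 8.14, 7.66 and 8.29 in NIR, and 8.33, 8.47 and 8.32 in PA. NIR replicate 2 lay far below all other arrays, and the remaining 2 NIR arrays lay just under those of PA, one of them within the IR range. The NIR to PA difference was -0.35 ± 0.13, with an interval of -0.64 to -0.055 and an adjusted p of 0.317 by limma. Without NIR replicate 2 it was -0.16, and the IR to NIR difference went from 0.27 to 0.080. The other probe set of Pold1 gave 0.0094 between IR and NIR and -0.065 between NIR and PA.

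Pole, the catalytic subunit of the leading-strand polymerase epsilon, went the other way in that array. It read 7.28, 7.37 and 7.33 in IR, 7.37, 7.61 and 7.41 in NIR, and 7.33, 7.42 and 7.33 in PA, with its highest value in NIR replicate 2. The IR to NIR difference was -0.14 ± 0.078, with an interval of -0.31 to 0.032 and an adjusted p of 0.432. Without NIR replicate 2 it was -0.065. Pola1, the catalytic subunit of polymerase alpha, covered 7.84 to 8.02, and no group mean of it differed from another by more than 0.057.

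The clamp and its loader held the widest differences between IR and NIR. Rfc3, a small subunit of the replication factor C loader, read 8.60, 8.52 and 8.75 in IR, 8.60, 7.78 and 8.54 in NIR, and 8.61, 8.61 and 8.29 in PA. Its value in NIR replicate 2 was 0.971 below its highest array, the widest range of the 40 genes, and the other 2 NIR arrays fell among those of IR and PA. The IR to NIR difference was 0.32 ± 0.18 (1.24-fold), with a 95% interval of -0.084 to 0.72 and an adjusted p of 0.448 by limma. Without NIR replicate 2 it was 0.052, and the NIR to PA difference turned from -0.19 to 0.068. The other probe set of Rfc3 gave 0.36 between IR and NIR with all arrays.

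Rfc4, another small subunit of the loader, read 9.68, 9.69 and 9.88 in IR, 9.59, 9.25 and 9.56 in NIR, and 9.67, 9.67 and 9.41 in PA. The 3 IR arrays lay above all NIR and PA arrays, narrowly so at the PA arrays 1 and 2. The IR to NIR difference was 0.28 ± 0.11, with an interval of 0.043 to 0.52 and an adjusted p of 0.228 by limma. Without NIR replicate 2 it was 0.17. Its other probe set gave 0.26 for that comparison but only 0.0068 between IR and PA, where the chosen one gave 0.17. Without PA replicate 3 the chosen probe set gave 0.078 between IR and PA. Rfc5, a further subunit, had the narrowest range of the 40 genes, 9.63 to 9.78 over the 9 arrays. Pcna, the clamp itself and a common proliferation marker, read 12.54, 12.45 and 12.42 in IR, 12.57, 12.41 and 12.45 in NIR, and 12.58, 12.51 and 12.48 in PA. The groups overlapped fully, and the differences were -0.009 between IR and NIR, -0.052 for IR against PA and -0.043 for NIR against PA.

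**Figure D3:**
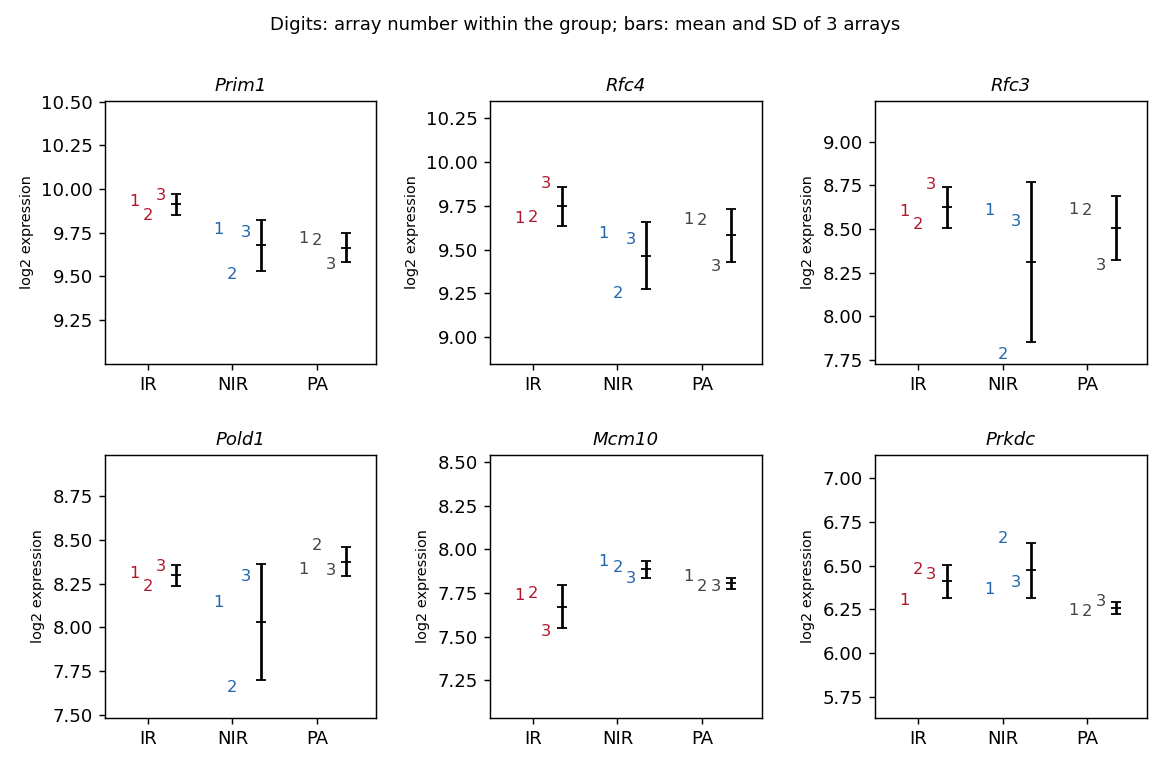
Log2 values of Prim1, Rfc4, Rfc3, Pold1, Mcm10 and Prkdc in each array (digits give the array number within IR, NIR and PA), with the mean and SD of 3 arrays beside them. The panels share the same height in log2 units but are centred on different levels, and NIR replicate 2 is the lowest NIR array for Prim1, Rfc4, Rfc3 and Pold1 and the highest for Prkdc.

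Lig1, the ligase that seals Okazaki fragments, read 9.17, 9.10 and 9.13 in IR, 9.09, 9.54 and 9.17 in NIR, and 9.11, 9.24 and 9.34 in PA. NIR replicate 2 was the highest array, and the IR and PA arrays overlapped. Between IR and NIR the difference was -0.14 ± 0.11, with an interval of -0.38 to 0.10 and an adjusted p of 0.611 by limma. That difference was 0.00028 without NIR replicate 2. Fen1, the flap endonuclease that trims those fragments, covered 10.24 to 10.53. IR replicate 3 was its lowest array, and its differences were between -0.057 and -0.015. Without IR replicate 3 the IR to PA difference was 0.036.

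The nucleotide suppliers gave no shared direction. Rrm2, the small subunit of ribonucleotide reductase whose level follows S phase, covered 10.75 to 11.13. It was 0.17 higher in IR than in NIR, with an interval of -0.0096 to 0.35 and an adjusted p of 0.346 by limma. Its lowest value was that of NIR replicate 2, without which the difference was 0.088. The chosen probe set of Rrm2 is one whose name marks shared sequence. Its other probe sets, nearly as bright with means of 10.45 and 10.35, gave 0.040 and -0.024 between IR and NIR. Rrm1, the large subunit, covered 10.09 to 10.52, with an IR to NIR difference of -0.12, or -0.059 without IR replicate 3. Tyms, thymidylate synthase, read 4.43, 4.16 and 4.12 in IR, 4.69, 4.40 and 4.19 in NIR, and 4.54, 4.39 and 4.39 in PA on its dim probe set. The IR to PA difference was -0.20 ± 0.12, with an interval of -0.47 to 0.068 and an adjusted p of 0.727. The other 3 Tyms probe sets averaged 3.39 to 3.42, lower still, so these values say little about the RNA of this gene.

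Among the recombination and Fanconi genes, Brca1, which directs broken ends to recombination, read 7.76, 7.52 and 7.85 in IR, 7.84, 7.74 and 7.93 in NIR, and 7.76, 7.76 and 7.64 in PA. IR replicate 2 was the lowest array and the groups overlapped. The NIR to PA difference was 0.11 ± 0.092, with an interval of -0.088 to 0.32 and an adjusted p of 0.686 by limma. Brca2, which serves homologous recombination, covered 7.59 to 7.87, and its IR arrays lay just above those of PA, by 0.11 on average. Rad54l, a DNA motor protein of the same pathway, covered 7.81 to 8.08, and its PA arrays lay above those of IR and NIR. Fancd2, the central protein of interstrand crosslink repair, read 7.18, 6.93 and 7.43 in IR, 7.18, 7.04 and 7.18 in NIR, and 7.25, 7.18 and 7.23 in PA. Both its lowest and its highest array were IR arrays, so its IR spread (SD 0.25) exceeded every difference between its group means.

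The end joining genes were each lower in IR than in NIR on average and higher in NIR than in PA, and none of the 3 was called. The shared direction between IR and NIR rested on NIR replicate 2. Without that array the IR to NIR difference of Prkdc turned from -0.064 to 0.026. Prkdc, the catalytic subunit of the DNA-dependent protein kinase, read 6.30, 6.48 and 6.45 in IR, 6.36, 6.66 and 6.41 in NIR, and 6.24, 6.24 and 6.30 in PA. All NIR and IR arrays lay above all PA arrays, IR replicate 1 only narrowly, and NIR replicate 2 was the highest of all. The NIR to PA difference was 0.22 ± 0.088 (1.16-fold), with an interval of 0.024 to 0.41 and an adjusted p of 0.346 by limma. Without NIR replicate 2 it was 0.13. Xrcc5 and Xrcc6, which form the Ku ring that binds broken ends, covered 7.22 to 7.58 and 8.59 to 8.86, with NIR to PA differences of 0.066 and 0.073. That of Xrcc5 was 0.017 without NIR replicate 2.

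Of the genes for single-strand break and mismatch repair, Xrcc1, the scaffold of break repair, read 7.74, 7.68 and 7.80 in IR, 7.80, 7.98 and 7.79 in NIR, and 7.85, 7.78 and 7.87 in PA. NIR replicate 2 was again the highest array, and the IR to NIR difference was -0.12 ± 0.075, with an interval of -0.28 to 0.047 and an adjusted p of 0.502. Without that array it was -0.056. Parp1, the sensor of nicked DNA, covered 9.39 to 9.57, and its group means lay within 0.030 of each other. Msh6, a mismatch repair protein, covered 7.83 to 8.07, with an IR to PA difference of 0.11, or 0.070 without IR replicate 3.

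Among the damage kinases, Chek2, which acts below Atm, read 6.77, 6.73 and 6.91 in IR, 6.64, 6.47 and 6.73 in NIR, and 6.79, 6.73 and 6.59 in PA. The IR arrays sat just above the highest NIR array, and NIR replicate 2 was the lowest of all. Its difference between IR and NIR was 0.19 ± 0.088, with an interval of -0.0016 to 0.39 and an adjusted p of 0.32 by limma. That difference was 0.12 without NIR replicate 2. Chek1, which acts below Atr, covered 7.87 to 8.25, with both ends in NIR. Atm, the kinase that answers double-strand breaks, read 7.85, 7.85 and 7.78 in IR, 7.86, 8.01 and 7.97 in NIR, and 7.91, 7.95 and 7.90 in PA. Its IR arrays were the lowest, with an IR to NIR difference of -0.12. Atr, the kinase that answers stalled forks, covered 6.64 to 7.04, with both ends in PA.

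The genes differed little from others in how far replicates spread. The median SD within a group was 0.094 over the 40 genes and 0.11 over all genes. The median distance between the highest and the lowest group mean was 0.12 for the 40 genes, and the median range over the 9 arrays was 0.33, from 0.142 for Rfc5 to 0.971 for Rfc3.

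The array carries further probe sets for many of these genes, which gives a check that the choice of probe set did not use. The 40 genes have 94 single-gene probe sets in all, with 1 each for 11 genes and several for 29. In a limma fit over every probe set, 0 of the 94 were called in any comparison, and the lowest adjusted p was 0.211 between IR and NIR, 0.355 for IR against PA and 0.393 for NIR against PA. Of the 33 other probe sets above the median signal, belonging to 23 genes, 21 had the same sign as the chosen probe set between IR and NIR, 24 for IR against PA and 17 for NIR against PA. Those above the median signal differed by -0.22 to 0.36, -0.24 to 0.26 and -0.35 to 0.22 in the 3 comparisons.

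The genes with an octamer in the promoter were set beside those without, with no test. The 15 genes with one had median differences of -0.0057 between IR and NIR, -0.016 for IR against PA and 0.024 for NIR against PA. The 19 without had -0.028, -0.056 and 0.0063. Both sets spanned 0 in each comparison, from -0.14 to 0.32 for the first and from -0.21 to 0.28 for the second between IR and NIR.

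Other genes of the same pathways held no call either. Of 47 other replication genes 45 were measured, of 78 other repair genes 69 and of 29 regulators of the G1 to S transition 29. In each list 0 genes were called by limma in each comparison. At an unadjusted limma p below 0.05 between IR and NIR there were 9 other replication genes (20%), 16 other repair genes (23.2%) and 9 regulators (31%). All genes stood at 15.9% and the 40 genes at 7.5%. For IR against PA the counts were 3 (6.67%), 5 (7.25%) and 5 (17.2%), beside 8.59% of all genes. For NIR against PA they were 7 (15.6%), 8 (11.6%) and 6 (20.7%), beside 12.1%. The list medians lay between -0.038 and 0.039 in all 3 comparisons. Mitosis genes, of which 25 of 26 were measured, held 1 call. Bub1, a kinase of the spindle checkpoint, was higher in IR than in NIR by 0.40 ± 0.066 (SE, n = 3 per group), with an adjusted p of 0.0180 by limma. It read 9.49, 9.48 and 9.58 in IR, 9.13, 9.08 and 9.14 in NIR, and 9.42, 9.40 and 9.33 in PA, so that NIR lay below both other groups. The difference between Bub1 and the replication genes was not tested.

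**Figure D4:**
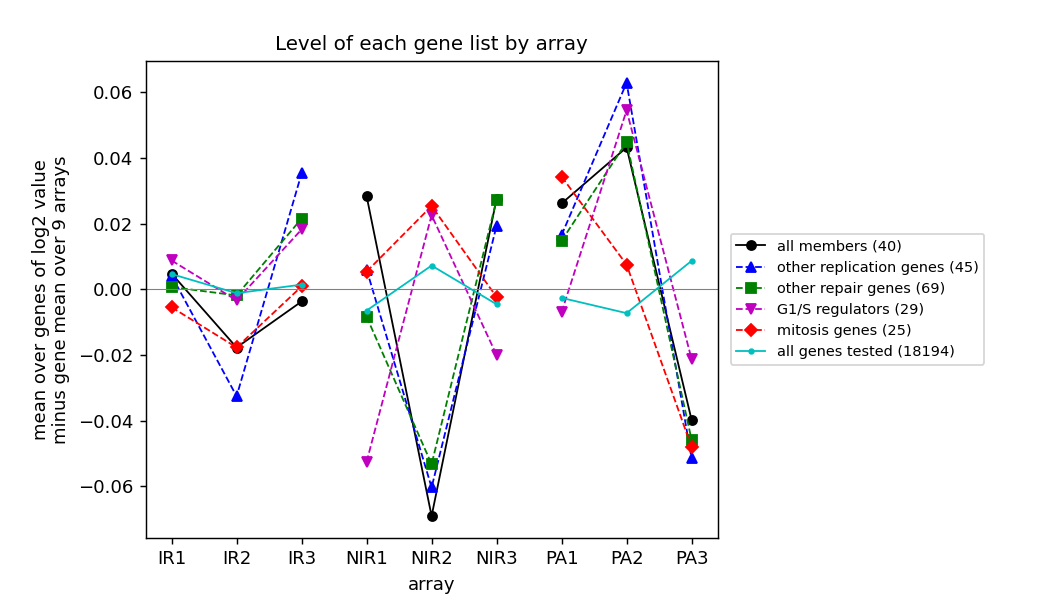
Mean over the genes of a list of the log2 value minus each gene's mean over 9 arrays (vertical axis) for each array, for the 40 genes, 4 related lists and all 18194 genes. In NIR replicate 2 the 40 genes lay at -0.069 and the other replication and repair genes also below 0, while the mitosis genes and the regulators lay above 0.

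The array medians lay between 4.45 and 4.52, but RMA brings arrays to a common scale, so this does not show that they were alike. The 3′ minus 5′ signal of the Gapdh control probe sets lay between -0.173 and -0.0664 in all 9 arrays. Over all genes the SD of the log2 differences was 0.129 between IR replicates 1 and 2. From IR replicate 3 it was 0.203 to IR replicate 1 and 0.209 to IR replicate 2. From NIR replicate 2 it was 0.230 to NIR replicate 1 and 0.213 to NIR replicate 3. Of the epithelial markers Krt8 was at 12.61 to 12.85 and Krt18 at 11.16 to 12.00, and Krt18 was called higher in IR by 0.57 against NIR and 0.55 against PA. The squamous markers Krt5, Krt14, Krt6a and Trp63 lay between 3.66 and 5.26 and the junction genes Cdh1 and Dsp between 3.19 and 3.40. The squamous identity in the label was not visible in these genes. The list also holds Krt19, Epcam and the junction gene Jup. Its 11 genes averaged 5.90 to 6.04 over the 9 arrays, so the dim genes named do not stand for all of them. Col1a2, Col3a1 and Pdgfra, known from fibroblasts, were at 9.00 to 11.75 in every array, though none of them was called. They lay above the average of their list, given below, so they do not stand for all 11 fibroblast markers. Of the 11 fibroblast markers, Dcn was called higher in IR and in NIR than in PA, by 1.24 and 0.81, and Lum higher in NIR than in PA, by 1.29. The fibroblast list as a whole averaged 7.08 to 7.18 in IR, 6.91 to 7.25 in NIR and 6.75 to 6.89 in PA.

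Of 14 measured macrophage markers 1 was called, Mrc1, higher in NIR than in PA by 0.75. That list averaged 4.51 to 4.92 in IR, 4.46 to 4.60 in NIR and 4.31 to 4.44 in PA. Ptprc, Adgre1, Itgam and Aif1 stayed between 3.24 and 4.05, but they do not stand for the list. In IR, 13 of the 14 markers had a higher mean than in PA and 10 a higher mean than in NIR. For IR against PA, 5 had an unadjusted limma p below 0.05 (35.7%), against 8.59% of all genes. The largest of these differences was 1.72 for Lyz2, which was not called and was highest in IR replicate 3. No lymphocyte or endothelial marker was called. In RNA from a whole culture, fewer cells of a type and less RNA per cell cannot be told apart. The part of such cells in the values of the 40 genes was not tested.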

How the data were processed

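Total RNA from 9 samples was measured on Affymetrix mouse arrays, and per the labels' protocols it was purified with a Qiagen kit and labelled with biotin. The deposited values are expression values on the log2 scale made by the authors with RMA, per the submitters' processing notes. Its version and settings are not given in the sources used here. The values ran from 2.47 to 14.0 and were used as deposited. Precision is limited by the number of arrays, which carry no count of reads.

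Of 45100 probe sets, 34944 were annotated to 1 gene, 932 to several and 9160 to none, and 64 were controls. Symbols came from the platform annotation and were updated by Entrez Gene number against RefSeq, which matched 34740 and left 204 unmatched. Each of the 18194 genes kept its brightest probe set by the mean of all 9 arrays, a choice among several for 9009. All 9 arrays entered 1 fit in limma 3.58.1 under R 4.3.3, using lmFit and eBayes with 1 mean per group and 2-sided tests. It had 6 residual and 5.483 prior degrees of freedom and was first tested on simulated data. P-values were adjusted by Benjamini-Hochberg over all genes, with a threshold of 0.05. Intervals are the difference ± 2.19 standard errors. Promoters were RefSeq sequences on GRCm38.p6.

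The genes, role groups and other lists were chosen with earlier results of these data known. Genes described with every array value were the 3 highest and 3 lowest in each comparison and, in each of 10 role groups, the gene with the widest range of group means. A few others (Mcm6, Mcm7, Pcna, Fancd2 and Atm) were added after their values were seen. Marker genes and other pathway genes were given as lists with those called. The alternatives were the probe set rule, a filter on dim probe sets, array scaling, the fit, the replicate number as a block, a threshold of 0.01 and leaving out each array. The replicate numbers were not treated as pairs, since the correlation of deviations between arrays of the same number lay between -0.201 and 0.0974.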

Additional observations from a re-analysis of the deposited data

How the results depend on the processing

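The count of replication and repair genes called stayed at 0 under all 19 alternatives for each comparison and all 18 for the F test, leaving out each array in turn included (0 to 0). The lowest adjusted p of any of the 40 genes over these alternatives was 0.135 between IR and NIR (quantile normalization), 0.13 between IR and PA (array weights), 0.123 between NIR and PA (without NIR replicate 3) and 0.152 for the F test (quantile normalization). Genes at an unadjusted limma p below 0.05 numbered 0 to 8, 0 to 3, 0 to 5 and 0 to 4. With the replicate number as a replicate block the counts of the 40 genes called were 0, and 230, 164, 203 and 330 of all genes were called. The samples share only a number, and the block changed no call of the 40 genes. Over all genes the number of calls ranged from 11 to 390 between IR and NIR, 99 to 467 between IR and PA, 108 to 382 between NIR and PA and 158 to 761 for the F test, against 300, 192, 236 and 426, the 11 coming from a fit of those 2 groups alone.

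The median difference of the 40 genes ranged from -0.040 to -0.010 between IR and NIR, from -0.050 to -0.016 between IR and PA and from -0.032 to 0.025 between NIR and PA, all of it from leaving out arrays. Each of these moves was smaller than the SD of 0.042 between arrays of a group in the mean of the 40 genes. Leaving out 1 of 3 arrays shifts a group mean by only part of that array's deviation, so this does not show stability. The NIR to PA median changed sign, from 0.0095 to -0.032 without NIR replicate 1. Among the 3 highest and 3 lowest genes of each comparison, the direction reversed for Mcm2 and Rfc3 between NIR and PA. Mcm2 was at 0.11 without probe sets of shared sequence (another probe set is then used). Rfc3 was at 0.068 without NIR replicate 2, which held its lowest value. Leaving out each array in turn moved this difference from -0.34 to 0.068. The filter on dim probe sets left 39 of the 40 genes, without Tyms. The counts of genes whose arrays did not overlap were tried under 4 alternatives chosen after seeing the data. They were 8 to 9, 8 to 9 and 4 to 5, against 7, 10 and 6. Those with IR below PA fell to 3 from 6 under quantile normalization and to 5 under each of the others. The number of arrays limits all of these, since an interval of 0.18 to either side was the median.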

Other observations

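Outside the 40 genes, 15 of the 143 other replication, repair and G1 to S genes had a lower adjusted p between IR and NIR than any of the 40. The share of all genes below that adjusted p was not counted. The 15 are therefore not read as a feature of these lists. The 6 lowest are given here and were chosen after their values were seen. Rbl1, the p107 pocket protein that binds E2F factors, read 8.54, 8.45 and 8.72 in IR and 8.15, 8.18 and 8.30 in NIR, a difference of 0.36 with an adjusted p of 0.0529 by limma. E2f7, a repressor of the E2F family, read 8.32, 8.30 and 8.23 in IR and 7.91, 8.10 and 7.90 in NIR, a difference of 0.32 with an adjusted p of 0.0591. Mybl2, the B-Myb factor of late S phase, went the other way, at 6.95, 6.84 and 6.68 in IR and 7.41, 7.32 and 7.15 in NIR, a difference of -0.47 with an adjusted p of 0.060. Rad23b, a partner of the nucleotide excision repair sensor, read 10.45, 10.42 and 10.34 in IR and 10.68, 10.88 and 10.63 in NIR, a difference of -0.33 with an adjusted p of 0.0708. Mutyh, a glycosylase of base excision repair, read 6.26, 6.27 and 6.40 in IR and 6.02, 6.02 and 6.07 in NIR, a difference of 0.27 with an adjusted p of 0.0740. Orc2, a subunit of the origin recognition complex, read 8.76, 8.64 and 8.37 in IR and 9.18, 9.00 and 8.92 in NIR, a difference of -0.44 with an adjusted p of 0.0788. In each of the 6 the IR and NIR arrays did not overlap. Over all genes 8.69% lay wholly higher and 9.4% wholly lower in IR. The 6 were picked by the p of that same comparison, so their separation adds no support. None of the 6 passed the threshold of 0.05. Lyz2, a macrophage gene, read 8.25 in IR replicate 3 and 4.63 to 6.32 in the other 8 arrays.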
